A study of Rattus norvegicus with 18 samples.

Results

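Of 4616 rat genes with a symbol and a value, 41 lay above fresh air in every lung sample taken after the high dose of cigarette smoke. The members were chosen by these measured values: all 9 high-dose log2 ratios of a gene had to exceed 0.1, where a log2 ratio is the base 2 logarithm of the signal of smoke-exposed lung over that of fresh-air lung. A value in all 9 high-dose samples was found for 3760 genes, and 74 met the threshold. Of these 74, 33 were left out by name or by a symbol starting with Slc, Trp, Rpl or Rps, among them Lcn2, C3, Cd68, Ctsd and Gstp1. Each of the 41 members was read by 1 distinct probe, so no member rests on an average of probes. The high-dose values are therefore described without a test, and the low-dose samples, which the rule did not use, were tested. The members and the gene lists were drawn up with earlier results of these data known.

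Rats breathed diluted cigarette smoke through the nose alone, at 300 µg (low dose) or 600 µg (high dose) of total particulate matter per litre, or conditioned fresh air as the control. They did so for 2 sessions of 1 hour a day with a break of 30 minutes, on 5 days a week, for 2, 7 or 13 weeks. Whole lungs were taken at 2, 6 or 20 hours from the end of the last session, so each dose has 9 combinations of weeks with hours. A sample is 1 pool of RNA from 4 rats, read against a fresh-air pool of 4 rats on 2-colour arrays. Within a combination, the samples of both doses share their fresh-air pool. The rats' strain, sex and age (not given in the sources used here) are unknown. Pooling hides the spread between animals, and no condition was repeated, so the spread quoted in what follows is that between combinations of weeks and hours.

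Inhaled smoke particles are taken up mainly by alveolar macrophages, which carry them to lysosomes, the compartments where cathepsins and other hydrolases digest their content. Phagocytes recognise such material through surface receptors and through complement C1q, and activated phagocytes make superoxide with the NADPH oxidase. Smoke also switches on inflammatory signalling in macrophages and in the airway and alveolar epithelium, much of it through NF-kB factors bound to kappaB sites in promoters. A log2 ratio from whole lung cannot tell apart more cells of a type from more RNA per cell.

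A sample held values for 3919 to 4583 genes, and the medians of the samples over genes lay between -0.01 and 0.01. Smoke-exposed tissue always carried the dye Cy5 and fresh-air tissue Cy3, and no dye swap is named. A constant dye effect of a probe thus adds to every value against air at both doses and cannot be told apart from smoke there. In the difference between the high-dose and the low-dose sample of a combination, both the dye effect and the shared fresh-air pool cancel. Only ratios were used, so the levels of lung marker genes, and with them the labelled tissue, could not be checked. The number of arrays limits the precision.

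At the high dose the members' means ran from 0.22 for Cd59b (1.16-fold) to 0.95 for Enpp2 (1.94-fold), with a median of 0.47 against 0.003 over all genes tested. The highest means after Enpp2, the secreted enzyme autotaxin, belonged to the survival gene Bcl2a1 (0.90), the sodium pump subunit Atp1b1 (0.90), the immunoglobulin receptor Fcgr2a (0.83) and the iron storage gene Ftl1 (0.70). At the edge of the rule, Ccn2, Ctsz and Dab1 each had a lowest value of 0.11 and were inside. Dpp7, Ndrg1 and Ptp4a1, whose lowest value was 0.10, were outside, among 87 genes not left out by name that had 8 of 9 values above 0.1.

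At the low dose, 40 members had enough values to be tested, and 27 of them rose above air (limma, adjusted p under 0.05 over all genes). The other 13 did not pass. An unadjusted p under 0.05 was found for 36 members and for 770 of the 4016 genes tested. No member fell. Over all 4016 genes tested, 3.51% were called higher and 1.44% lower. The members' median at the low dose was 0.30, against -0.002 for all genes tested, and their means lay between 0.03 (Sdc4) and 0.60 (Ftl1). In all 9 low-dose samples 15 members lay above air: Atp1b1, Fcgr2a, Ftl1, Ctsz, Ctsb, C1qa, Cyba, C1qc, Sema4a, Stom, Lgmn, Anxa1, Ghitm, Mgst2 and Plp2. The share of all genes that did so is not given here. The low-dose samples share the fresh-air pools and the dye with the samples that chose the members, so a pool that was low in a gene raises its values at both doses, and how far this adds to the count was not tested. An exact sign-flip permutation test called 0 members and 0 genes after adjustment. By that test 34 members and 687 of all genes tested had an unadjusted p under 0.05. At the smallest two-sided p that 9 samples allow (0.00391) stood 15 members and 138 genes, in either direction. Asking for at least 1.5-fold left 0 members and 1 gene. Of the 27 calls, 17 were kept without each of the 9 samples in turn, and 2, C1qa and Ftl1, also without each week or hour level. Without the 13 week samples 33 genes were called, 3 of them members (C1qa, Enpp2 and Ftl1). Without the 7 week or the 2 hour samples 50 and 48 genes were called, with 6 members each time.

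**Figure D1:**
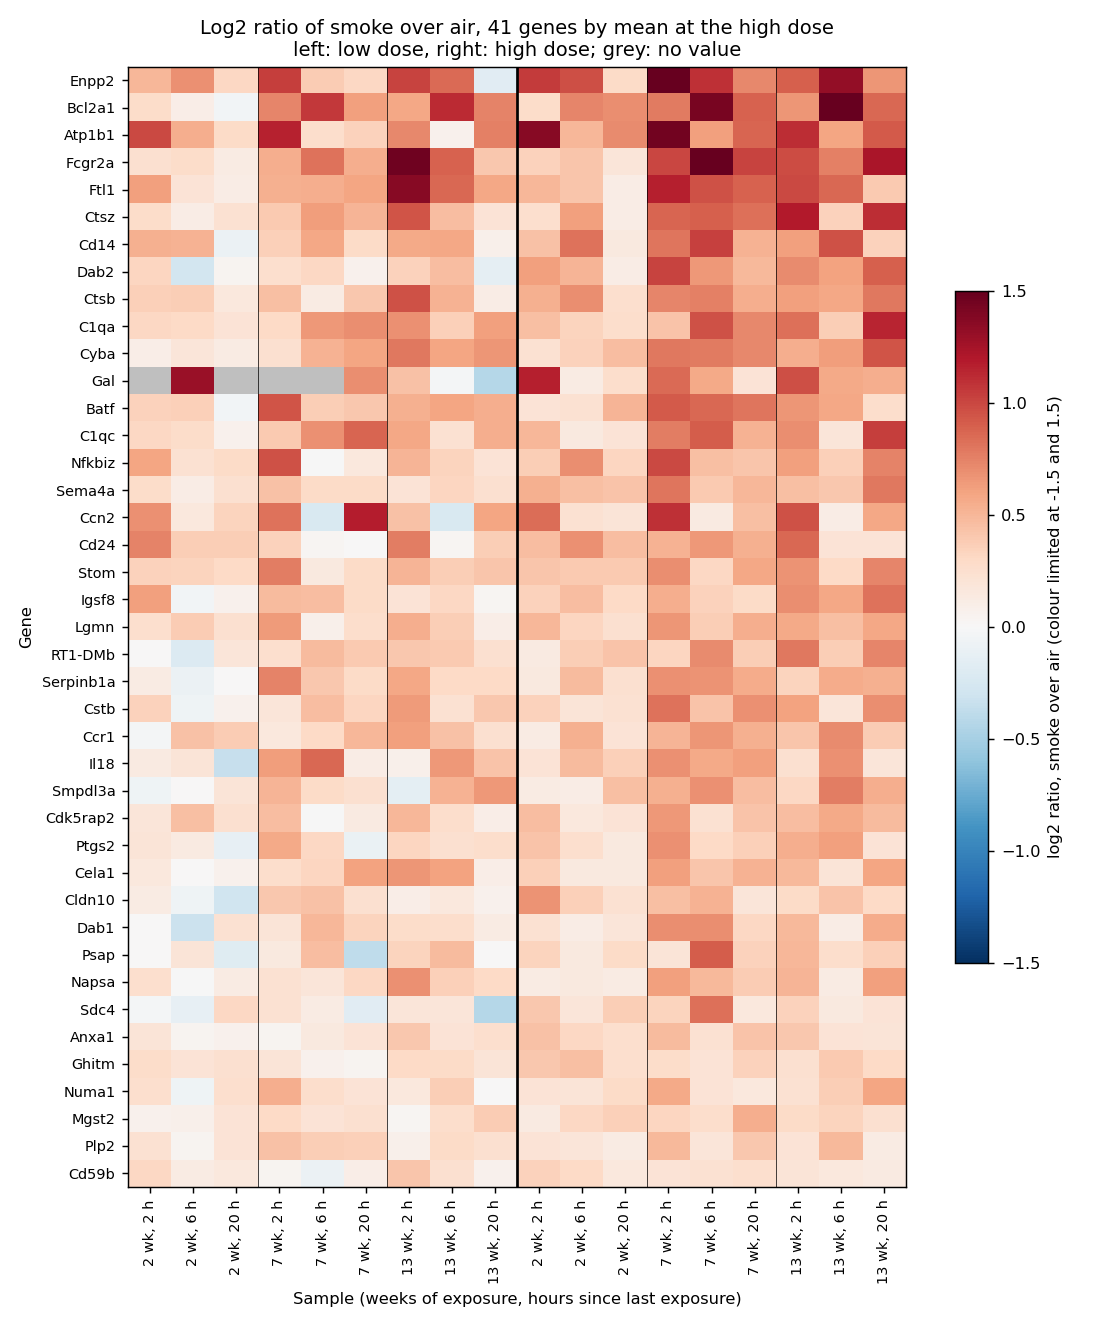
Log2 ratio of smoke over air for the 41 genes (rows, ordered by mean at the high dose) in the 9 low-dose samples (left) and the 9 high-dose samples (right), each column 1 sample with its weeks of exposure and hours since the last exposure. Red is above air, blue below and grey without a value, and colours stop at -1.5 and 1.5. All high-dose cells are red because the rule asked for it, and 26 of the rows have at least 1 low-dose cell at or below air or without a value.

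**Figure D2:**
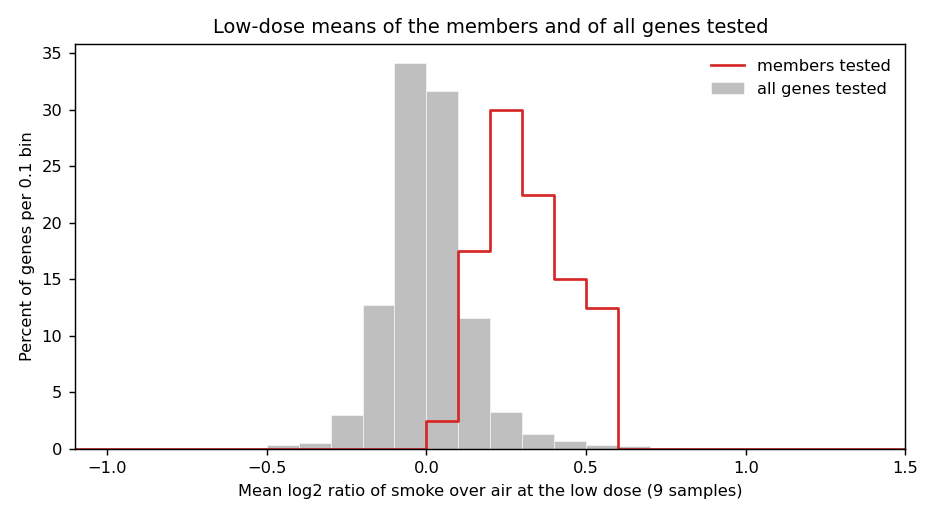
Mean log2 ratio at the low dose over up to 9 samples, in bins of 0.1, as a percentage of the 4016 genes tested (grey bars) and of the 40 members tested (red line). The member means all lie above 0 with a median of 0.30, and the median of all genes is -0.002.

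Because many inflammatory genes are read from kappaB sites, the promoters of the members were searched in RefSeq windows (rat assembly GRCr8) that run from 250 bases before to 50 bases after a gene's start. A window was supplied for 30 of the 41 members. A kappaB match on either strand was found in 8 of the 30 (26.7%) and in 8.16% of 27457 genes with a window. The 8 were Nfkbiz, Sdc4, Ctsz, Batf, Ccn2, Cd24, Fcgr2a and Plp2. The windows of Bcl2a1, Il18, Ptgs2, Anxa1 and Cd14, also inflammatory or phagocyte genes, held no match. The 27457 genes include genes without a value here, and the share among the 4616 measured genes was not computed. The 3 windows given here are those of an inflammatory regulator, a cell-surface proteoglycan and a lysosomal protease, each 300 bases, 5′ to 3′ on the gene's own strand, with the kappaB matches in capitals.
Nfkbiz, chr11:58251471-58251770, plus strand: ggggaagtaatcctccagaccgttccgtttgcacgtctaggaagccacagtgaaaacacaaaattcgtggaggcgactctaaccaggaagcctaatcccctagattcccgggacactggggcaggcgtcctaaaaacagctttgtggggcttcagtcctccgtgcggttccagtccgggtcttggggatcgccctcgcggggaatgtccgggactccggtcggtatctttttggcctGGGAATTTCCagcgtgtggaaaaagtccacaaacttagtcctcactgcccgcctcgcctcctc
Sdc4, chr3:173592874-173593173, minus strand: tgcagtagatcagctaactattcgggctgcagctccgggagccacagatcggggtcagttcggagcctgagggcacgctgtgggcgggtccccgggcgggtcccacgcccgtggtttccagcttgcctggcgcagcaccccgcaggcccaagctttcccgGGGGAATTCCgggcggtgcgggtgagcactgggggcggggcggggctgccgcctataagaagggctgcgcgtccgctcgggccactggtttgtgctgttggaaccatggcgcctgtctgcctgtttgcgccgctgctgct
Ctsz, chr3:183653798-183654097, minus strand: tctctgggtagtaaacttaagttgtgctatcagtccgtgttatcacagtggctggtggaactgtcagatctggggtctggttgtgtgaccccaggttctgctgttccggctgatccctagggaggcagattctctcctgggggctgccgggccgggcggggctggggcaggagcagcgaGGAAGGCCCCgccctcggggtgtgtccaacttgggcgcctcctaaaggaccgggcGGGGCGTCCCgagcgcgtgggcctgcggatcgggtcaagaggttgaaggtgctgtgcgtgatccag
The Nfkbiz match starts at base 238 of its window and the Sdc4 match at base 161, and Ctsz has a match at base 180 and another at base 235. GC content differed along with the matches: the median window was 52.3% GC over all genes, 55.3% over the members, 62.3% over the 8 members with a match and 58.3% over all genes with one. Its part in the share was not tested.

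Other motifs were searched on both strands in the same windows. All but the C/EBP letters also stood above their share among all genes with a window, and no difference was tested. These shares too include genes without a value here. The AP-1 letters TGANTCA were found in 13.3% of member windows and 8.04% of all, and the core of the antioxidant response element, TGACNNNGC, in 16.7% and 13.1%. These patterns can overlap each other. The xenobiotic response core GCGTG was in 46.7% and 32.4%, the PU.1 core GAGGAA in 46.7% and 29.2%, the E-box CACGTG in 3 of 30 and 7.08%, and the C/EBP letters TTGCNNAA in 3 of 30 and 11.4%. A match describes the letters of a window and not a bound factor.

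As the members were grouped here, the largest role group held 9 lysosomal genes, other proteases and protease inhibitors. Of these 7 rose at the low dose, where 27 of all 40 tested members did. Ctsz, which encodes the cysteine protease cathepsin Z and whose promoter is printed above, had high-dose values of 0.11, 0.83 and 1.19 (lowest, median and highest of 9), with a mean of 0.69 ± 0.38 (SD). Its low-dose values were 0.11, 0.39 and 0.94, and the mean of 0.42 ± 0.08 (SE, n = 9, above air in 9 of 9) passed limma with an adjusted p of 0.00546. The values of the doses overlapped, and the lowest high-dose value came after 2 weeks at 20 hours. Ctsb, the abundant lysosomal cathepsin B, ran from 0.25 through 0.62 to 0.79 at the high dose and from 0.11 through 0.37 to 0.95 at the low dose. Its low-dose mean of 0.38 ± 0.08 (SE) passed (adjusted p = 0.0093). Lgmn, the asparaginyl endopeptidase that matures cathepsins, ran from 0.24 through 0.50 to 0.66 at the high dose and from 0.08 through 0.26 to 0.64 at the low dose, where it rose by 0.32 ± 0.06 (SE, adjusted p = 0.00859). These 3 proteases thus lay above air in all 9 low-dose samples, as 15 members did, and the rule asked for it at the high dose.

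The group also holds inhibitors of proteases, Cstb and Serpinb1a, and the proteases Napsa and Cela1. Other inhibitors, Serpina1, Serpina3n, Slpi, A2m and Timp1, stood at -0.08, -0.04, -0.11, -0.02 and 0.14 at the low dose and did not pass. At the high dose Serpina3n had a mean of 0.70, with values from -0.76 to 2.61. Kng2 and Fetub, from the same list of acute phase genes and protease inhibitors, were left out by name. They rose at the low dose by 0.49 ± 0.11 and 0.56 ± 0.08 (SE, limma, adjusted p = 0.0145 and 0.000701). Cstb, the inhibitor of cysteine cathepsins cystatin B, had a high-dose mean of 0.46 ± 0.24 (SD) and rose at the low dose by 0.28 ± 0.07 (SE, adjusted p = 0.0272). Serpinb1a, an inhibitor of neutrophil serine proteases, ran from 0.15 through 0.53 to 0.69 at the high dose. It rose at the low dose by 0.30 ± 0.08 (SE, adjusted p = 0.0418), though its 2 week low-dose values were 0.12, -0.09 and 0.01. Napsa, the aspartic protease of type 2 alveolar cells that processes surfactant protein B, ran from 0.12 through 0.38 to 0.62 at the high dose and from -0.01 through 0.25 to 0.69 at the low dose, a rise of 0.27 ± 0.06 (SE, adjusted p = 0.0265). Cela1, a chymotrypsin-like elastase, ran from 0.15 through 0.42 to 0.61 at the high dose and from 0.00 through 0.26 to 0.66 at the low dose, where it rose by 0.31 ± 0.08 (SE, adjusted p = 0.0314).

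Psap and Smpdl3a were the lysosomal members that did not pass. Psap, the precursor of the saposins that help sphingolipid hydrolases, ran from 0.15 through 0.33 to 0.91 at the high dose. Low-dose values of Psap ran from -0.38 through 0.15 to 0.48, and its mean of 0.12 ± 0.08 (SE) had an adjusted p of 0.482. Its low-dose mean turned to -0.01 without the 6 hour samples. The phosphodiesterase Smpdl3a stood at 0.44 ± 0.23 (SD) at the high dose and at 0.24 ± 0.08 (SE, adjusted p = 0.113) at the low dose. In a wider list of lysosome and vacuolar ATPase genes, 11 of 25 tested genes rose at the low dose and 0 fell, with a median of 0.21. Of the 11, 8 met the high-dose threshold, 3 as members and 5 left out by name (Ctsd, Cd63, Cd68, Naaa and Acp5), so they are not independent of the rule. The 16 genes that did not meet it had 3 rises and a median of 0.10, with Ctsa, which is a protective carboxypeptidase, at 0.38 ± 0.08 (SE, adjusted p = 0.0145). At the high dose Ctsa came as low as 0.08, just under the rule.

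Complement, phagocyte receptor and antigen handling genes made up 8 members, of which 6 rose at the low dose. C1qa and C1qc encode chains A and C of C1q, the recognition protein of the classical complement pathway, and lie next to each other on the same chromosome. C1qa ran from 0.26 through 0.45 to 1.14 at the high dose and from 0.21 through 0.36 to 0.70 at the low dose. Its low-dose rise of 0.46 ± 0.07 (SE, n = 9, adjusted p = 0.00108) had the smallest p of any member, and its lowest low-dose value was 0.21. C1qc ran from 0.15 through 0.52 to 1.04 at the high dose and from 0.06 through 0.39 to 0.87 at the low dose, a rise of 0.44 ± 0.08 (SE, adjusted p = 0.00364). C1qb, the remaining C1q chain, rose too at the low dose, by 0.41 ± 0.08 (SE, adjusted p = 0.00546). It is not a member because its lowest high-dose value was 0.03, with a mean there of 0.58. The C1 proteases C1r and C1s stood at 0.05 and 0.11 at the low dose and did not pass (adjusted p = 0.719 and 0.305). At the high dose their means were 0.07 and 0.33, with lowest values of -0.22 and -0.12.

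Among the receptors, Fcgr2a, a low-affinity receptor for immunoglobulin G, ran from 0.18 through 0.98 to 1.59 at the high dose. Its low-dose values ran from 0.12 through 0.54 to 1.46, and it rose by 0.59 ± 0.11 (SE, adjusted p = 0.00608). The 2 week samples were its lowest at both doses. RefSeq lists Fcgr3 names among the synonyms of this gene, so its probe may not tell related receptors apart. Fcgr2b stood at 0.06 at the low dose (adjusted p = 0.662). At the high dose Fcgr2b had a mean of 0.30, with values from 0 to 0.48. Cd14, the co-receptor that presents bacterial lipopolysaccharide to Tlr4, ran from 0.15 through 0.62 to 1.03 at the high dose and from -0.09 through 0.52 to 0.58 at the low dose. Its rise at the low dose was 0.38 ± 0.07 (SE, adjusted p = 0.00764), and within each week the 20 hour sample was its lowest at both doses. Tlr4 itself stood at 0.06 at the low dose (adjusted p = 0.606). Ccr1, a receptor for CC chemokines on monocytes and neutrophils, had a high-dose mean of 0.45 ± 0.20 (SD) and rose at the low dose by 0.34 ± 0.06 (SE, adjusted p = 0.00678).

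Cyba encodes the p22phox subunit of the NADPH oxidase. It ran from 0.23 through 0.63 to 0.94 at the high dose and from 0.10 through 0.52 to 0.79 at the low dose, and rose there by 0.42 ± 0.08 (SE, adjusted p = 0.00546). Its membrane partner Cybb stood at 0.28 at the low dose and did not pass (adjusted p = 0.151). At the high dose Cybb had a mean of 0.45, with values from -0.17 to 1.16. The cytosolic subunit Ncf4 rose at the low dose by 0.25 ± 0.06 (SE, adjusted p = 0.0193). RT1-DMb, a chain of the molecule that loads peptides onto MHC class II, had a high-dose mean of 0.47 ± 0.22 (SD) and a low-dose mean of 0.24 ± 0.07 (SE), which did not pass (adjusted p = 0.0663) except without the 2 week samples (0.36, adjusted p = 0.0124). Its partner chain RT1-DMa stood at 0.11 at the low dose and did not pass (adjusted p = 0.41). At the high dose RT1-DMa had a mean of 0.25 and a lowest value of 0.10, just outside the rule. The class II invariant chain Cd74 rose at the low dose by 0.35 ± 0.07 (SE, adjusted p = 0.00664). Cd59b, an inhibitor of the terminal complement complex, had the lowest high-dose mean of all members, with values of 0.14, 0.21 and 0.34. At the low dose it ran from -0.09 through 0.12 to 0.42 and did not pass (adjusted p = 0.158). Of 18 tested genes in a wider list of phagocyte receptors and adaptors, 6 rose and 1, Adgre1, fell at the low dose, and the list median was 0.14. Of the 6, 2 were the members Cd14 and Fcgr2a. The 16 genes that did not meet the high-dose threshold had 4 rises, 1 fall and a median of 0.10.

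Macrophage markers moved in both directions. Of 9 tested at the low dose, 5 rose (Cd68, Mrc1, Lgals3, Lyz2 and the member Cd14) and 1, Adgre1, fell. Cd68, Lgals3 and Cd14 met the high-dose threshold. The 6 macrophage markers that did not meet it had 2 rises, 1 fall and a median of 0.15. Adgre1 had means of -0.45 at the low dose and -0.72 at the high dose. Csf1r, at -0.14 and -0.19, did not pass at the low dose. The mean of the list lay between 0.12 and 0.44 in the low-dose samples and between 0.24 and 0.59 in the high-dose samples. Of 7 neutrophil markers, 2 rose, Cxcr2 and Lcn2, and Lcn2 met the high-dose threshold. The neutrophil list means ran from -0.42 to 0.82 at the low dose and from -0.49 to 1.41 at the high dose. Of 10 lymphocyte markers, 1 fell (Cd4) and 0 rose, and the list lay between -0.52 and 0.10 at the low dose and between -0.88 and -0.24 at the high dose. Of 6 alveolar markers 3 rose (Sftpa1, Sftpd and the member Napsa), all of which met the high-dose threshold. Aqp5, Pdpn and Ager stood at -0.17, -0.11 and -0.06 and did not pass, and the list lay between -0.07 and 0.18 at the low dose and between -0.13 and 0.29 at the high dose. Of 9 endothelial and smooth muscle markers, 2 airway markers and 7 blood and striated muscle markers 0 were called. The part of cell numbers in the members' values was not tested.

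Of 6 members in inflammatory signalling and survival, 3 rose at the low dose. Bcl2a1, a BCL2 relative that protects leukocytes from apoptosis and is a known NF-kB target, ran from 0.28 through 0.78 to 1.82 at the high dose. Its low-dose values ran from -0.04 through 0.61 to 1.12, and it rose by 0.58 ± 0.11 (SE, adjusted p = 0.00579). Its highest value at both doses came after 13 weeks at 6 hours. The related genes Mcl1, Bcl2l1 and Bcl2 stood at -0.002, -0.04 and -0.03 at the low dose and did not pass (adjusted p = 0.993, 0.858 and 0.871). Batf, an AP-1 family transcription factor of immune cells, had a high-dose mean of 0.56 ± 0.28 (SD) and low-dose values of -0.04, 0.41 and 0.94. It rose at the low dose by 0.45 ± 0.08 (SE, adjusted p = 0.00361).

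Nfkbiz, which encodes the nuclear regulator IkB-zeta and has the kappaB match nearest to its start among the 3 windows above, ran from 0.32 through 0.45 to 0.99 at the high dose. Low-dose values of Nfkbiz ran from -0.01 through 0.29 to 0.96, and it rose by 0.36 ± 0.08 (SE, adjusted p = 0.0203), highest after 7 weeks at 2 hours at both doses. The inhibitor Nfkbia stood at 0.22 ± 0.07 (SE) at the low dose and did not pass (adjusted p = 0.11), and at the high dose it came as low as -0.56. Ptgs2, the inducible cyclooxygenase, ran from 0.15 through 0.36 to 0.68 at the high dose and stood at 0.20 ± 0.07 (SE, adjusted p = 0.115) at the low dose. The cytokine Il18 stood at 0.45 ± 0.21 (SD) at the high dose and at 0.31 ± 0.10 (SE, adjusted p = 0.105) at the low dose, where it passed without the 2 week samples (0.46, adjusted p = 0.0303). Anxa1, the glucocorticoid-inducible inhibitor of phospholipase A2, ran from 0.19 through 0.31 to 0.48 at the high dose and from 0.04 through 0.19 to 0.41 at the low dose. Its low-dose mean of 0.17 ± 0.05 (SE) was above air in 9 of 9 samples but did not pass (adjusted p = 0.0766). Of 19 tested genes of a wider list of the NF-kB pathway and its targets, 4 rose at the low dose (Nfkbiz, Tnfaip2, Birc3 and Il1b), 0 fell and the median was 0.07. The 17 that did not meet the high-dose threshold had 3 rises and a median of 0.06.

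Of 5 members in secreted and cell-surface signalling, 4 were tested and 2 rose at the low dose. Enpp2, or autotaxin, makes the lipid mediator lysophosphatidic acid. It ran from 0.29 through 0.97 to 1.59 at the high dose and from -0.17 through 0.50 to 1.04 at the low dose, a rise of 0.55 ± 0.11 (SE, adjusted p = 0.00699). Its value below air came after 13 weeks at 20 hours. The lysophosphatidic acid receptors Lpar1 and Lpar3 stood at -0.01 and -0.07 at the low dose and did not pass (adjusted p = 0.969 and 0.566). Sema4a, a membrane semaphorin of immune cells, had the smallest low-dose SD of the members (0.09), with values of 0.11, 0.28 and 0.44, and rose by 0.27 ± 0.05 (SE, adjusted p = 0.00526). Its high-dose values ran from 0.39 through 0.45 to 0.80, so only the top of the low-dose range overlapped them.

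Ccn2, or connective tissue growth factor, ran from 0.11 through 0.45 to 1.10 at the high dose and from -0.23 through 0.44 to 1.18 at the low dose. Its low-dose mean of 0.42 ± 0.12 (SE) did not pass (adjusted p = 0.0714), but it was 0.67 and passed without the 6 hour samples (adjusted p = 0.00863). The neuropeptide galanin, Gal, ran from 0.12 through 0.57 to 1.17 at the high dose. It had 5 low-dose values, -0.43, -0.03, 0.44, 0.70 and 1.30, and was not tested. Sdc4, a heparan sulphate proteoglycan of the cell surface whose promoter is printed above, ran from 0.15 through 0.33 to 0.83 at the high dose. At the low dose it ran from -0.43 through 0.12 to 0.31, its mean of 0.03 ± 0.07 (SE) did not pass (adjusted p = 0.883), and without the 2 hour samples it turned to -0.02. Its relatives Sdc1 and Sdc2 stood at -0.02 and -0.06 at the low dose (adjusted p = 0.893 and 0.685). At the high dose their means were 0.23 and 0.06. Sdc1 lay above air in 9 of 9 high-dose samples, with a lowest value of 0.01, so it shared much of the pattern of Sdc4.

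Of 8 endocytic adaptors, adhesion and membrane proteins, 5 rose at the low dose. Atp1b1, the beta subunit of the sodium pump, ran from 0.50 through 0.87 to 1.45 at the high dose and from 0.07 through 0.55 to 1.16 at the low dose, where it rose by 0.57 ± 0.10 (SE, adjusted p = 0.00378). In every week it was highest at 2 hours at the high dose, at 1.36, 1.45 and 1.11. The other beta subunits Atp1b2 and Atp1b3 stood at 0.05 and 0.11 at the low dose (adjusted p = 0.706 and 0.486), and at the high dose Atp1b2 had a mean of -0.22. Stom, the membrane scaffold stomatin, rose at the low dose by 0.39 ± 0.06 (SE, adjusted p = 0.00225) and had a high-dose mean of 0.50 ± 0.17 (SD). The surface glycoprotein Cd24 rose by 0.34 ± 0.08 (SE, adjusted p = 0.0311) and the tetraspanin partner Igsf8 by 0.27 ± 0.07 (SE, adjusted p = 0.0398) with high-dose means of 0.51 and 0.48. The call of Igsf8 was lost whichever week or hour level was left out. The membrane protein Plp2 ran from 0.12 through 0.20 to 0.49 at the high dose and from 0.04 through 0.24 to 0.44 at the low dose, where it rose by 0.25 ± 0.05 (SE, adjusted p = 0.0145).

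Dab2, a clathrin adaptor that sorts lipoprotein receptors for uptake, ran from 0.11 through 0.61 to 1.01 at the high dose and from -0.27 through 0.25 to 0.46 at the low dose. Its low-dose mean of 0.15 ± 0.07 (SE) did not pass (adjusted p = 0.284). Its relative Dab1, an adaptor of reelin signalling, stood at 0.38 ± 0.24 (SD) at the high dose and 0.18 ± 0.07 (SE, adjusted p = 0.186) at the low dose. The tight junction protein Cldn10 stood at 0.38 ± 0.15 (SD) at the high dose and at 0.13 ± 0.07 (SE, adjusted p = 0.346) at the low dose, and Cldn5 and Cldn18, claudins of endothelium and alveolar epithelium, stood at -0.08 and -0.01 there (adjusted p = 0.645 and 0.987).

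Of the 5 remaining members, 4 rose at the low dose. Ftl1, the light chain of the iron store ferritin, ran from 0.11 through 0.86 to 1.17 at the high dose and from 0.11 through 0.58 to 1.36 at the low dose. Its rise of 0.60 ± 0.10 (SE, n = 9, adjusted p = 0.00285) was the largest low-dose mean among the members, and its value was lowest after 2 weeks at 20 hours at both doses. The heavy chain Fth1 rose as well, by 0.32 ± 0.07 (SE, adjusted p = 0.0101), and missed the rule at the high dose with a lowest value of 0.06. Mgst2, a microsomal glutathione transferase that also makes leukotriene C4, rose by 0.20 ± 0.05 (SE, adjusted p = 0.0432), and its relative Mgst1 stood at 0.17 and did not pass (adjusted p = 0.188). The mitochondrial inner membrane gene Ghitm rose by 0.20 ± 0.05 (SE, adjusted p = 0.0307) and the centrosomal gene Cdk5rap2 by 0.26 ± 0.06 (SE, adjusted p = 0.0272). The calls of Mgst2, Ghitm and Cdk5rap2 were lost whichever week or hour level was left out. Numa1, a spindle pole organiser, stood at 0.22 ± 0.06 (SE) and did not pass (adjusted p = 0.0621). At the high dose the means of Mgst2, Ghitm, Cdk5rap2 and Numa1 were 0.31, 0.32, 0.41 and 0.31. That of Mgst1 was 0.30, with a lowest value of -0.01.

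Wider lists drawn up around the members gave different counts at the low dose. Of 24 genes of the glutathione and thioredoxin cycle 7 rose with a median of 0.19, and of 18 genes of carbonyl and xenobiotic metabolism 7 rose with a median of 0.21. Of these rises, 4 and 3 were of genes that met the high-dose threshold, as members or left out by name. Of 17 acute phase genes and protease inhibitors 9 rose, and all 9 met that threshold, 8 of them left out by name and Serpinb1a a member. The other 8 had a median of -0.03 and 0 calls. Of 18 lipid handling genes 5 rose, of 26 actin and calcium-binding cytoskeletal genes 2, of 12 translation factors 2, of 16 glycolysis genes 1, and of 2 pentose phosphate genes 1, with medians from 0.002 to 0.23. Of the 5 lipid handling rises, 2 (Fabp5 and Lpl, left out by name) met the high-dose threshold. Of 35 protein folding and proteasome genes 0 passed, with a median of 0.02. No gene of these lists fell.

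High-dose values lay above low-dose values on average for all 41 members, by a median of 0.17 on the log2 scale against 0.006 over all genes. Since the high-dose values chose the members, this is a description with no test. In at least 8 of 9 pairs the high-dose sample was higher for 14 of 40 members, where 4.07% of 3560 genes reached that, and the rule used the same values. Dab2 differed most, by 0.47 ± 0.32 (SD, 9 pairs) with pair values from 0.07 to 1.04, and was higher in 9 of 9 pairs. Enpp2 followed at 0.41 ± 0.31 (from -0.11 to 0.83), Atp1b1 at 0.33 ± 0.18 (from -0.05 to 0.53), Bcl2a1 at 0.33 ± 0.29 (from 0.00 to 0.74), Sdc4 at 0.30 ± 0.26 (from -0.03 to 0.71) and Ctsz at 0.27 ± 0.34 (from -0.12 to 0.91). C1qa (0.15 ± 0.17) and Sema4a (0.26 ± 0.14) were also higher in 9 of 9 pairs.

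The mean difference was small for other members. It was 0.01 ± 0.13 (SD) for Plp2, 0.07 ± 0.16 for Cd59b, 0.08 ± 0.23 for Napsa and 0.08 ± 0.27 for Cela1, each smaller than its spread over the 9 pairs. Ftl1 was higher at the high dose in 4 of 9 pairs and Batf in 4 of 9, with mean differences of 0.10 and 0.11. Gal, with 5 pairs, had a mean difference of 0.09 ± 0.90 from pair values that ran from -1.18 to 0.98. By pair, the median over members ran from 0.06 after 13 weeks at 6 hours to 0.31 after 13 weeks at 20 hours.

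**Figure D3:**
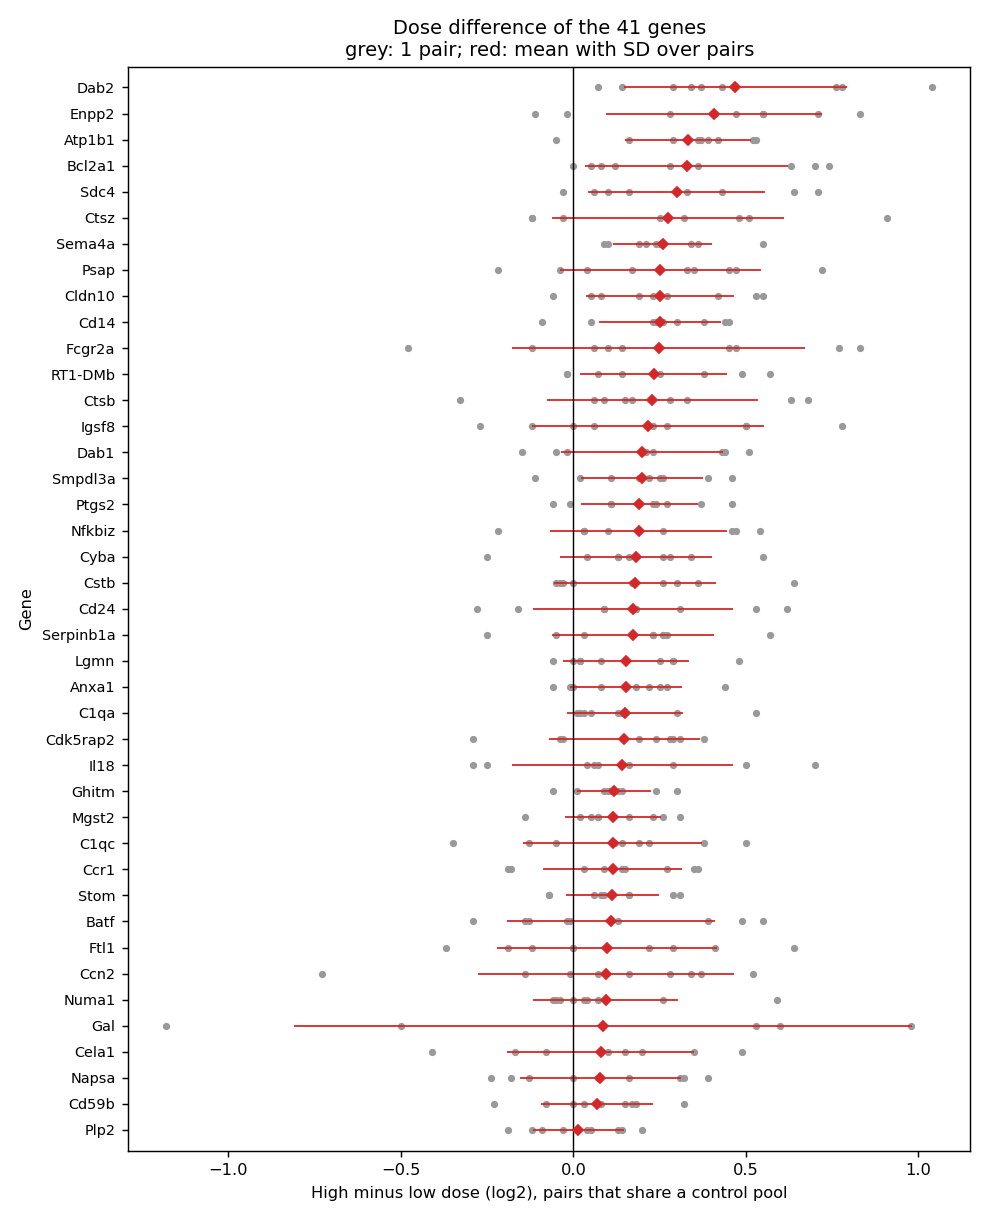
Difference in log2 ratio between the high-dose and low-dose sample that share a fresh-air pool, for the 41 genes ordered by their mean difference; grey points are pairs (9 per gene, 5 for Gal) and red diamonds the mean with its SD. Dab2 is at the top with a mean of 0.47 and Plp2 at the bottom with 0.01, and the mean lies above 0 for every gene.

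Over time, the members stood lowest after 2 weeks at the high dose. The median over members there was 0.37, 0.34 and 0.25 at 2, 6 and 20 hours after 2 weeks, then 0.69, 0.62 and 0.52 after 7 weeks and 0.57, 0.43 and 0.58 after 13 weeks. Of the 41 members 19 had their highest high-dose value after 7 weeks at 2 hours, among the values that chose them. Of 40 members 26 had their highest high-dose mean at 7 weeks, where 33.8% of genes did, again in the values that chose the members. At the low dose 17 of 40 members had their highest mean at 7 weeks and 19 at 13 weeks. Of all genes 33.9% and 34.4% did so. Over all genes tested, 35.0% lay above 0.1 in the high-dose sample after 7 weeks at 2 hours. After 2 weeks 31.2%, 30.3% and 29.1% did. The part of this spread in the members' pattern was not tested. At the low dose the medians over members were 0.27, 0.16 and 0.17 after 2 weeks, 0.42, 0.32 and 0.29 after 7 weeks, and 0.51, 0.36 and 0.24 after 13 weeks. In the limma F test over weeks in the low-dose samples, 0 of 40 members passed, 9 had an unadjusted p under 0.05 and the smallest adjusted p was 0.496. Over all genes, 0.0255% passed (1 of 3916, S100a9, named after its value was seen) and 6.08% had an unadjusted p under 0.05. The members with the smallest p over weeks were Bcl2a1, at 0.11, 0.80 and 0.81 after 2, 7 and 13 weeks (adjusted p = 0.496), Ftl1 at 0.31, 0.55 and 0.93 (adjusted p = 0.707) and Cyba at 0.13, 0.45 and 0.68 (adjusted p = 0.707).

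By hours, 26 of 40 members had their highest low-dose mean at 2 hours, where 37.0% of genes did. The limma F test over hours in the low-dose samples called 0 of 40 members, with 8 at an unadjusted p under 0.05 and a smallest adjusted p of 0.173. Over all genes 0.46% passed and 9.70% had an unadjusted p under 0.05. Ccn2 had the smallest p of the members over hours, with low-dose means of 0.65 at 2 hours, -0.10 at 6 hours and 0.70 at 20 hours (adjusted p = 0.173). Without the sample after 2 weeks at 20 hours it was the 1 member to pass. At the high dose Ccn2 was also lowest at 6 hours after 7 and 13 weeks, at 0.14 and 0.11, in samples that share fresh-air pools with the low-dose samples. Psap was highest at 6 hours (0.38, with 0.16 at 2 hours and -0.18 at 20 hours, adjusted p = 0.258), and Atp1b1 was highest at 2 hours (0.96, with 0.29 at 6 hours and 0.46 at 20 hours, adjusted p = 0.288). With the low-dose and high-dose samples averaged, 4 members passed over hours, Atp1b1, Ccn2, Cd14 and Enpp2, but that average holds the values that chose the members.

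**Figure D4:**
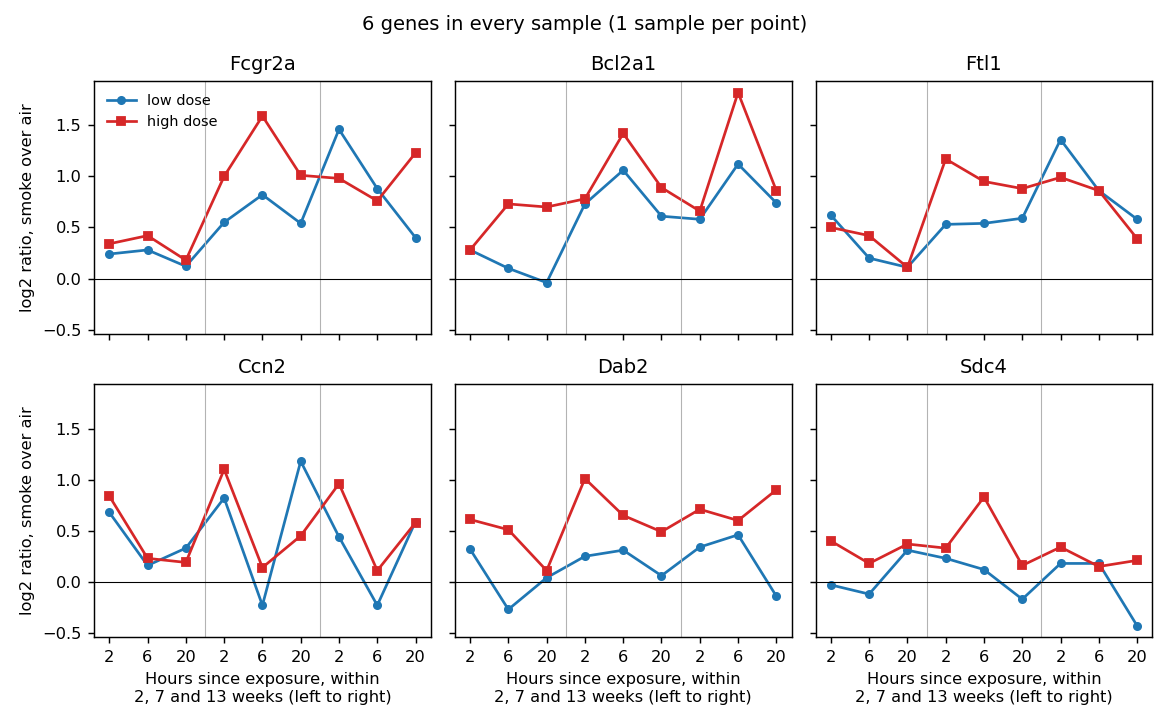
Log2 ratio of smoke over air by hours since the last exposure within 2, 7 and 13 weeks (left to right in each panel) for 6 genes, with 1 sample per point, low dose in blue circles and high dose in red squares. All Fcgr2a points after 2 weeks lie below the later points of the same dose, the 2 week mean of Bcl2a1 and of Ftl1 lies below their later means at both doses though single points overlap, Ccn2 dips at 6 hours after 7 and 13 weeks, and Dab2 and Sdc4 are near air at the low dose (means of 0.15 and 0.03).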

How the data were processed

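Log2 ratios of 18 whole-lung samples were used as deposited by the authors. Per the labels' protocols, RNA of 4 rats was pooled, amplified, labelled by reverse transcription (Cy5 for smoke, Cy3 for fresh air) and hybridised to 2 PIQOR arrays per sample. The scanner, background correction, filter and normalization (not given in the sources used here) are unknown, and the direction, smoke over air, is taken from the channel labels. The members and lists were chosen with earlier results of these data known.

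Rows of a gene that agreed wherever both held a value were merged, which left 4780 distinct probes of 4616 genes, and probes of a gene were averaged. The 4016 genes that had both doses in 6 or more of the 9 combinations were tested with limma 3.58.1 in R 4.3.3 (lmFit and eBayes, two-sided, Benjamini-Hochberg over all genes, threshold 0.05): the mean of the 9 low-dose ratios against 0, and F tests over hours and over weeks with the other as a covariate (3916 genes). High-dose values and dose differences were described without a test. Scripts were tested on simulated data. Every member is named. Lowest, median and highest values are given for the 12 with the largest high-dose mean, the 8 with the largest low-dose rise, the 6 with the largest and 4 with the smallest dose difference, members of the wider lists and a few others. The 9614 of 9658 rows with a symbol that matched took their identifiers from RefSeq (GRCr8). The alternatives were another threshold of the rule, another test, a minimum change, another filter, single probes, centring, and samples left out.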

Additional observations from a re-analysis of the deposited data

Results flagged for a closer look

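Of 81 groups of member values (a gene at a dose) with enough samples, 4 had a sample that stood far from the others, where chance gives about 1 in 20 groups. Cathepsin B, Ctsb, had 0.25 after 2 weeks at 20 hours at the high dose, with the nearest sample at 0.53. Ctsb also had 0.95 after 13 weeks at 2 hours at the low dose, with the nearest at 0.52. In the high-dose sample taken after 7 weeks at 6 hours, Psap stood at 0.91 with the nearest sample at 0.50, and Sdc4 at 0.83 with the nearest at 0.40. No cause of these values was tested.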

How the results depend on the processing

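With the threshold of the rule at 0 in place of 0.1, 148 genes were members, and with 0.2, 13 were. Centring each sample gave 39. At the low dose the 27 members and 199 genes called became 0 and 0 by an exact sign-flip permutation test over samples, whose smallest two-sided p with 9 samples is 0.00391. At that smallest p stood 15 members and 138 genes, and 34 members and 687 genes had an unadjusted p under 0.05. Asking for 1.5-fold left 0 members and 1 gene. Without the 2, 7 or 13 week samples, 22, 6 and 3 members and 128, 50 and 33 genes were called, and without the 2, 6 or 20 hour samples 6, 12 and 15 members and 48, 104 and 122 genes. Without single samples the counts ran from 19 to 28 members and from 123 to 193 genes, the 123 without the sample after 13 weeks at 2 hours. Over hours, averaging both doses gave 4 members and 78 genes, and leaving out single samples, chosen after seeing the data, gave 0 to 1 members and 10 to 16 genes. Over weeks, all genes gave 0 without hours as a covariate, 5 with both doses averaged and 0 to 2 without single samples. The low-dose mean of Psap turned to -0.0117 without the 6 hour samples, and that of Sdc4 to -0.0183 without the 2 hour samples. Fewer samples were left wherever samples were dropped, and the cause of the other changes was not tested. The median difference between doses stayed between 0.145 and 0.207 whichever pairs were left out. With all 18 samples in 1 fit and the shared fresh-air pool as a random block, 32 members and 272 genes were called at the low dose, and that fit includes the samples that chose the members. No paired analysis was possible because each test used the low-dose samples alone, 1 per fresh-air pool, and the dose difference, which is taken within pools, has no test. The signal over background is unknown.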
